A study of Mus musculus with 8 samples.

Results

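The genes described here are 43 members of the machinery that builds ribosomes in the nucleolus, out of 32285 genes counted in each library. They were chosen as a gene module with measured values of these data in view, above all the level of Rrs1, a factor of large subunit assembly, in irradiated and control tumors. That contrast is therefore given as a description and supports nothing by itself. By role the module holds the transcription factor gene Myc, 2 subunits of RNA polymerase I, 3 proteins of box C/D and 4 of box H/ACA small nucleolar ribonucleoproteins (snoRNPs), and 3 nucleolar chaperones or scaffold proteins. It further holds 10 members of the small subunit processome, 4 late 40S assembly factors, 13 factors of 60S assembly and 3 other nucleolar regulators. All 43 had UMIs (unique molecular identifiers, the counted transcript tags) in each of the 8 groups of immune cells.

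Ribosomes are assembled in the nucleolus, where RNA polymerase I transcribes the precursor of the ribosomal RNAs. snoRNPs guide methylation and pseudouridylation of that precursor, the small subunit processome folds and cuts it, and separate sets of factors finish the small and the large subunit. MYC, which binds DNA at E-box motifs, raises transcription of many of these genes, and cells that grow or divide carry more of their mRNAs than mature, resting cells such as neutrophils.

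The cells came from mice with MC38 tumors, a mouse colon carcinoma line, and were sorted as CD45+CD11b+Ly6Chi from tumor and from blood, 3 days after a dose of 20 Gy of ionizing radiation (IR) to the tumor or without it. WT mice were Ythdf2 fl/fl. cKO mice were Lyz Cre;Ythdf2 fl/fl on the same C57BL/6J background and lose the m6A reader Ythdf2 only where the Lyz2 promoter, active in myeloid cells, drives Cre. Both genotypes carried the floxed alleles, each group pooled 5 mice, and WT and cKO cells shared a library under separate hashtag antibodies. The 4 libraries thus gave 8 groups of 1 sample each, so no difference below has a replicate check and none was tested.

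A cell was labelled WT or cKO from at least 20 hashtag UMIs, and 27459 cells were kept, of which 493 non-immune cells carrying fibroblast markers were set apart. Their cluster had 5 fibroblast markers and 7 markers of cycling cells raised. The name fibroblast-like rests on these markers, and whether the cluster holds MC38 carcinoma cells was not tested. The remaining 26966 immune cells, 1895 to 4624 a group with 16549063 to 23413474 gene UMIs, are the basis of all values unless a cell class is named. Levels are UMIs summed over the cells of a group per 1000000 UMIs (CPM) with exact Poisson 95% intervals. Differences are log2 ratios of CPM after adding 1 UMI scaled to depth, with exact conditional binomial 95% intervals. Both intervals cover counting error only. A member was counted in a comparison when the groups together held at least 100 of its UMIs, and the median over counted members is given with the medians of their lower and upper bounds. In summed cells, fewer cells with many of these mRNAs and fewer of the mRNAs per cell cannot be told apart.

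The labels carry a limit that touches each comparison of genotypes. Ythdf2 stood at 33.4 to 55.8 CPM in the 4 groups labelled WT and at 301.9 to 513 CPM in the 4 labelled cKO, and Lyz2 at 6186 CPM or more in WT-labelled and at 138 CPM or less in cKO-labelled groups. Lyz2, the gene that carries the Lyz Cre allele, thus went the way of the labels. Ythdf2 went against them, although 3′ tags outside the deleted part check nothing. The groups are called cells labelled WT and cells labelled cKO. The tumor libraries also shared barcodes. Of the tumor control barcodes with at least 500 UMIs, 7327 had under 20 hashtag UMIs, and 7325 of these had 20 or more in the irradiated tumor library. The same held the other way for 4955 of 4958 barcodes. The hashtag minimum removed them, which left 31 barcodes kept in both tumor libraries and 20 kept in both blood libraries. With both labels pooled, the median log2 ratio of IR over control in tumor was −0.95 with the minimum and −0.31 without it. Unlike the other values, both include fibroblast-like cells, cells removed elsewhere by doublet score and cells between the labels.

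MYC and related factors bind the E-box CACGTG, a palindrome that reads the same on both strands. Of the 43 members, 37 were matched by symbol to a promoter of 300 bases (250 before to 50 after the gene start) in the table of RefSeq promoters used here, on GRCm38.p6. Bop1, Fbl, Myc, Npm1, Rrp12 and Rrs1 were not matched. The motif lay in 8 of the 37 (21.6%), against 8.09% of the 27025 genes of the table and 7.15% of its 32851 promoters. These 8 stretches are printed because the members are known as MYC-responsive genes. Capitals mark the motif, and each reads 5′ to 3′ on the strand of its gene.
Nop2: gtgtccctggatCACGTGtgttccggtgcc
Utp4: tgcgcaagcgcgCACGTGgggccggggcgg
Ltv1: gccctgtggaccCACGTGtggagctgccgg
Utp20: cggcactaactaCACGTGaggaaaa
Pes1: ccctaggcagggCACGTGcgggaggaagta
Mybbp1a: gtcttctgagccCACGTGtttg
Utp18: gcgagcgccggtCACGTGgcttgcggcggc
Wdr43: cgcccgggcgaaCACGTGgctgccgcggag
Their positions are chr6:125131811-125131840 (forward strand) for Nop2, chr8:106893643-106893672 (forward) for Utp4, chr10:13193092-13193121 (reverse) for Ltv1 and chr10:88826765-88826789 (reverse) for Utp20. Those of the others are chr11:3963965-3963994 (forward) for Pes1, chr11:72441355-72441376 (forward) for Mybbp1a, chr11:93885769-93885798 (reverse) for Utp18 and chr17:71616220-71616249 (forward) for Wdr43. The motif began 60 bases before the gene start in Nop2 and 20 before it in Utp18, and between 3 and 41 bases after it in the other 6. A match of letters is a description and not a bound site. In cells labelled WT the median log2 ratio of IR over control in tumor was −0.59 over the members with the motif and −0.76 over the matched members without it. In cells labelled cKO the corresponding medians were −0.82 and −1.01. The ranges of the 2 sets overlapped, from −1.48 to −0.50 with the motif and from −1.11 to −0.32 without it for the WT label. Since this contrast was used to choose the members, nothing is read from these medians.

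The module's summed level separated the cell classes more than the groups. In WT-labelled cells of control tumors it was 7789 CPM (7696 to 7884) in fibroblast-like cells, 3744 CPM in NK cell-like, 2764 CPM in dendritic cell-like and 2671 CPM (2639 to 2703) in macrophage-like cells. In WT-labelled control blood, monocyte-like cells held 1831 CPM, nonclassical monocyte-like cells 1733 CPM and neutrophil-like cells 344 CPM. Immature neutrophil-like cells of blood, 108 in all, are not among these classes. Of the classes listed, neutrophil-like cells were lowest, and none of their 4 blood groups was above 344 CPM. The share of UMIs from ribosomal protein genes was also lower there, at 3.47% to 4.18% in neutrophil-like and 17.9% to 19.4% in monocyte-like cells.

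**Figure D1:**
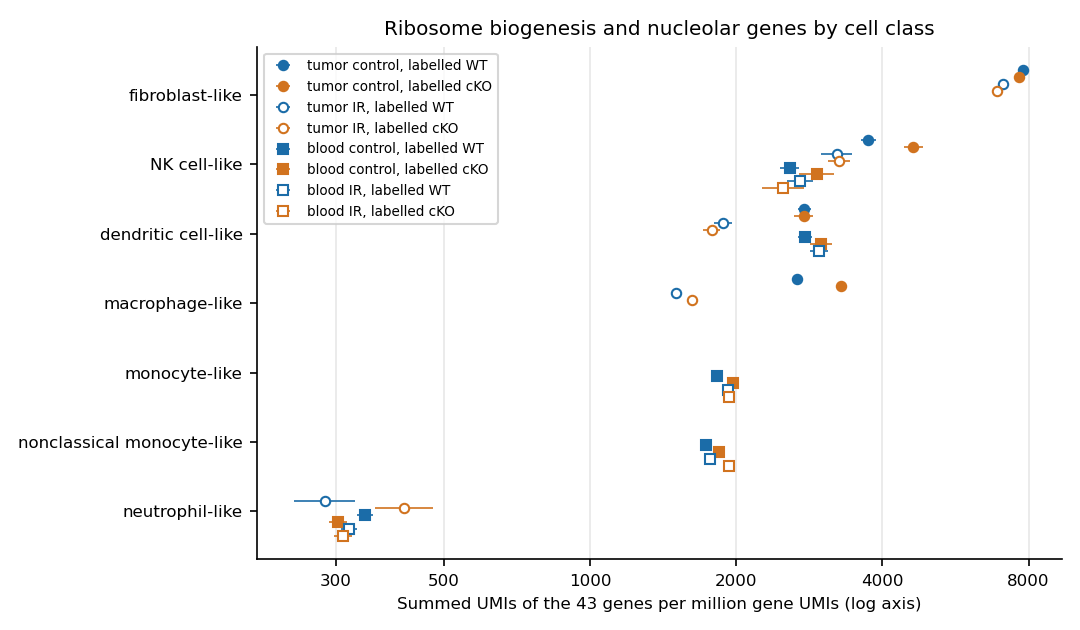
Summed level of the 43 members (CPM, log axis) by cell class in the 8 groups, each point being 1 group of cells with its exact Poisson 95% interval. Fibroblast-like cells lie at the top, at 6905 to 7789 CPM, and neutrophil-like cells of blood at the bottom, at 344 CPM or less, while macrophage-like cells move from 2671 and 3291 CPM in control tumors to 1503 and 1622 CPM after IR.

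Over all immune cells of tumor, the summed level was 2454 CPM (2430 to 2477) in WT-labelled and 3098 CPM (3071 to 3125) in cKO-labelled control cells. After IR it was 1492 CPM (1474 to 1510) and 1587 CPM (1571 to 1604). In blood it stayed between 1312 and 1368 CPM in all 4 groups. The intervals of the 4 tumor groups did not overlap with one another, and the irradiated tumor groups lay closer to the blood groups than to the control tumors. Without Npm1 and Ncl, which held the most UMIs of the module, the tumor levels were 1369 and 1715 CPM in control and 836 and 895 CPM after IR.

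**Figure D2:**
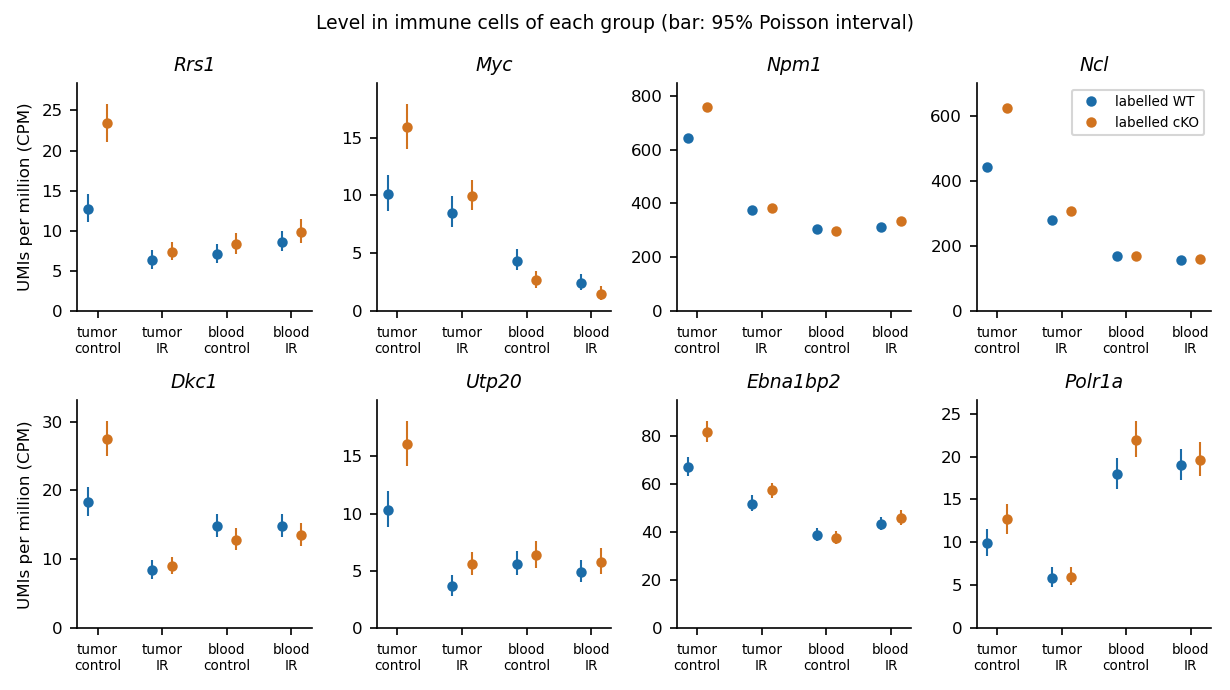
Level (CPM) of Rrs1, Myc, Npm1, Ncl, Dkc1, Utp20, Ebna1bp2 and Polr1a in immune cells of the 8 groups, with exact Poisson 95% intervals. For Rrs1 the control tumor groups, at 12.8 and 23.4 CPM, lie above the irradiated tumor groups at 6.39 and 7.39 CPM, and Polr1a lies higher in each blood group than in each tumor group.

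Rrs1 (ENSMUSG00000061024, a protein-coding gene on the forward strand at chr1:9545408-9547455 of mm10) encodes the factor that docks the 5S ribonucleoprotein on the growing large subunit. Its level in tumor was 12.8 CPM (11.1 to 14.6) in WT-labelled and 23.4 CPM (21.1 to 25.8) in cKO-labelled control cells. After IR it was 6.39 CPM (5.29 to 7.66) and 7.39 CPM (6.33 to 8.58). In blood it was 7.11 and 8.36 CPM in control and 8.63 and 9.90 CPM after IR, for WT and cKO labels in turn. The cKO-labelled control tumor group stood highest, and the irradiated tumor groups overlapped with the control blood groups. The log2 ratio of IR over control in tumor, which the choice of the module used, was −0.99 (−1.33 to −0.67) for the WT label and −1.66 (−1.93 to −1.40) for the cKO label. It was the 9th lowest of the 42 counted members in the former and the lowest of 43 in the latter.

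By cell class, Rrs1 stood at 101 CPM (90.7 to 112) in fibroblast-like cells of WT-labelled control tumors and at 14.7 CPM (12.4 to 17.2) in macrophage-like cells. In WT-labelled monocyte-like cells it was 10.6 CPM in control blood and 14.9 CPM after IR. Neutrophil-like cells of blood held 0 Rrs1 UMIs in both control groups, which allows up to 0.36 CPM in the WT-labelled and 0.428 CPM in the cKO-labelled group, and 5 UMIs in each irradiated group. Its IR ratio within macrophage-like cells was −1.16 on the log2 scale (−1.59 to −0.76) for the WT label and −1.63 (−1.93 to −1.35) for the cKO label. In WT-labelled fibroblast-like cells it was −0.34 (−0.62 to −0.06), from 101 to 79.9 CPM.

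After IR the module was lower in tumor immune cells throughout. Of the 42 members counted for the WT label all 42 had a lower level, and of the 43 counted for the cKO label all 43 did, also under TMM scaling, which raised each of these ratios by 0.14 on the log2 scale. Median log2 ratios were −0.76 (−0.93 to −0.54) and −0.96 (−1.15 to −0.76), against medians of −0.10 over 9259 and −0.06 over 9616 genes. The interval lay below 0 for 41 of 42 members (35.2% of all genes) and for 43 of 43 (37.3%). Ratios of −1 or less were reached by 7 members with the WT label (2.99% of genes) and by 20 with the cKO label (6.22%), and −0.5 or less by 34 (13.9%) and 40 (19.7%). Since the module was chosen on this contrast, nothing is read from these counts.

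**Figure D3:**
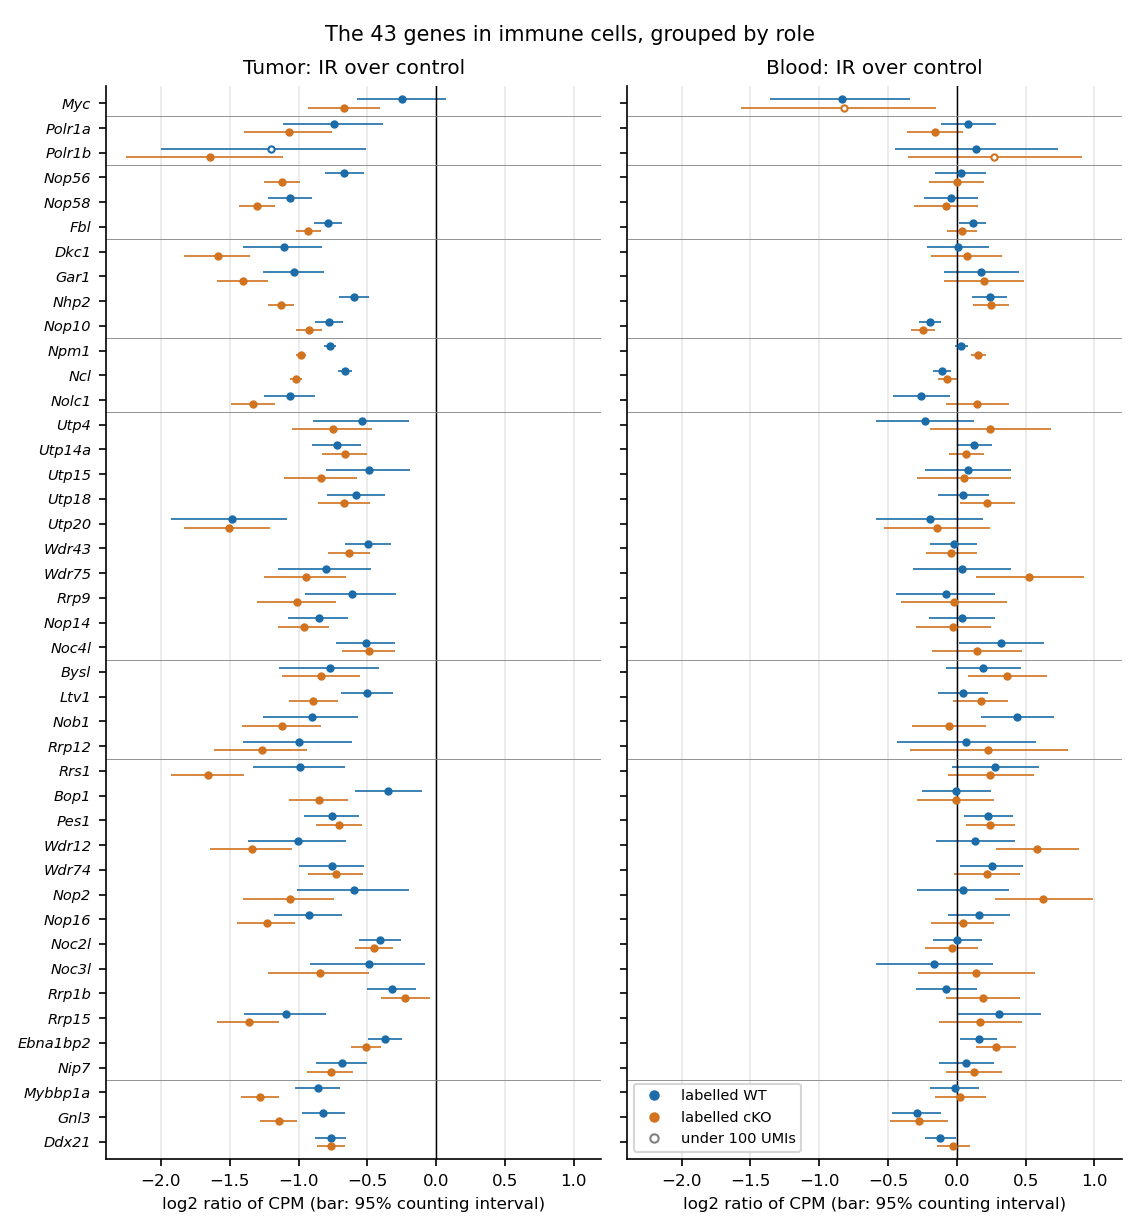
Log2 ratio of IR over control for each member in immune cells of tumor and of blood, by label, with exact conditional binomial 95% intervals and members ordered by role. The tumor ratios all lie below 0, from −1.66 for Rrs1 with the cKO label to −0.22 for Rrp1b, and the blood ratios scatter on both sides of 0.

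Other measures moved with IR in tumor. The share of UMIs from ribosomal protein genes was 15.9% in both control groups and 11.3% (WT label) and 11.6% (cKO label) after IR. All 14 genes of a proliferation list were lower, with a summed level of 331 and 759 CPM in control and 161 and 151 CPM after IR. The neutrophil-like share of kept tumor cells was 0.675% and 1.21% in control and 10.5% and 6.64% after IR. Without the 765 cells that held at least 3 UMIs of 7 cycling markers, the median log2 ratios of the module were −0.72 and −0.87, and within macrophage-like cells, which leave out the neutrophil-like ones, they were −0.84 and −1.01. The fibroblast markers summed to 5.35 to 8.46 CPM in the 4 groups of tumor immune cells, against 3883 to 4352 CPM in fibroblast-like cells.

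Myc encodes the transcription factor of the module. Its level in tumor immune cells was 10.1 CPM and 15.9 CPM in WT-labelled and cKO-labelled control cells and 8.52 and 9.99 CPM after IR. In blood it was 4.35 and 2.66 CPM in control and 2.43 and 1.48 CPM after IR. Each tumor group thus stood above each blood group. The log2 ratio of IR over control in tumor was −0.25 (−0.57 to 0.07) for the WT label, the nearest to 0 of the 42 counted members, and −0.67 (−0.93 to −0.41) for the cKO label. In fibroblast-like cells Myc stood at 148 and 147 CPM in control and at 136 and 123 CPM after IR, against 10.9 to 18.6 CPM in macrophage-like cells. Neutrophil-like cells of blood held 0.43 CPM or less in each group.

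Polr1a and Polr1b encode the largest subunits of RNA polymerase I. Polr1a stood at 9.91 and 12.7 CPM in control tumors and at 5.90 and 6.02 CPM after IR, but at 17.9 to 21.9 CPM in the 4 blood groups, so that tumor and blood did not overlap. Its log2 ratio of IR over control in tumor was −0.74 (−1.11 to −0.39) and −1.07 (−1.39 to −0.76). Polr1b was scarce, at 1.31 to 5.32 CPM over the 8 groups, and was not counted for the WT label. Its log2 ratio for the cKO label in tumor was −1.65 (−2.26 to −1.12).

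The box C/D snoRNP consists of the scaffold proteins Nop56 and Nop58 and the methyltransferase Fbl, fibrillarin. Nop58 stood at 55.9 and 79.6 CPM in control tumors, at 26.8 and 32.3 CPM after IR and at 16.0 to 19.8 CPM in blood. Its log2 ratio of IR over control in tumor was −1.06 (−1.22 to −0.90) for the WT and −1.30 (−1.43 to −1.17) for the cKO label. Fbl stood at 122 and 141 CPM in control tumors and at 70.8 and 74.0 CPM after IR, and at 70.4 to 76.1 CPM in blood. Its log2 ratios in tumor were −0.78 (−0.88 to −0.68) and −0.93 (−1.02 to −0.84). The irradiated tumor groups thus overlapped with blood for Fbl and stood above it for Nop58. Nop56, from 59.5 and 75.9 CPM to 37.5 and 34.9 CPM, had log2 ratios of −0.67 and −1.12.

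The box H/ACA snoRNP converts uridine to pseudouridine through the synthase Dkc1, dyskerin, with its partners Gar1, Nhp2 and Nop10. Dkc1 stood at 18.3 and 27.4 CPM in control tumors and at 8.47 and 9.10 CPM after IR, below its blood levels of 12.8 to 14.9 CPM. Its log2 ratio in tumor was −1.11 (−1.40 to −0.83) for the WT and −1.59 (−1.83 to −1.35) for the cKO label. Gar1, from 29.2 and 41.2 CPM to 14.3 and 15.5 CPM, had log2 ratios of −1.03 (−1.26 to −0.82) and −1.40 (−1.59 to −1.22). Nhp2, from 97.2 and 146 CPM to 64.2 and 66.8 CPM, had −0.60 (−0.71 to −0.49) and −1.13 (−1.22 to −1.04). Nop10 differed from its partners in blood, where its 105 to 126 CPM lay above the 68.3 and 67.4 CPM of irradiated tumors and overlapped with the control tumors, at 117 and 128 CPM. Its log2 ratios of IR over control in tumor were −0.78 (−0.88 to −0.67) and −0.92 (−1.02 to −0.83).

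Npm1, nucleophosmin, and Ncl, nucleolin, are abundant RNA-binding chaperones of the nucleolus, and Nolc1 is a scaffold that binds snoRNPs. Npm1 (chr11:33152287-33163206, reverse strand) stood at 641 and 757 CPM in control tumors, at 376 and 383 CPM after IR and at 299 to 334 CPM in blood. Its log2 ratio in tumor was −0.77 (−0.82 to −0.73) for the WT and −0.98 (−1.02 to −0.94) for the cKO label. Ncl (chr1:86344719-86359400, reverse strand) stood at 444 and 626 CPM in control tumors, at 280.4 and 309.6 CPM after IR and at 157 to 169 CPM in blood. Its log2 ratios were −0.66 (−0.71 to −0.61) and −1.02 (−1.06 to −0.97). For both genes the order was control tumor, irradiated tumor, blood, with no overlap. Nolc1, from 41.5 and 54.9 CPM to 19.8 and 21.8 CPM, had log2 ratios of −1.06 (−1.25 to −0.88) and −1.33 (−1.49 to −1.17).

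The small subunit processome is the large particle that cuts the precursor towards the 18S ribosomal RNA. Its 10 members had a median log2 ratio of IR over control in tumor of −0.60 (WT label) and −0.79 (cKO label). Utp20, a long scaffold protein, was farthest from 0 for the WT label, from 10.3 to 3.66 CPM with a log2 ratio of −1.48 (−1.92 to −1.08), and went from 16.0 to 5.60 CPM for the cKO label, −1.51 (−1.83 to −1.21). Rrp9, a protein of the U3 snoRNP, was the only other of the 10 past −1, at −1.01 (−1.30 to −0.73) for the cKO label. Utp4, Utp15, Wdr43 and Wdr75, of the complex that binds the precursor first, ranged from −0.80 to −0.49 for the WT label and from −0.95 to −0.63 for the cKO label. Utp14a, which activates a helicase of the particle, stood at 39.8 and 39.5 CPM in control tumors, at 24.1 and 24.9 CPM after IR and at 45.9 to 55.5 CPM in blood. As for Polr1a, each blood group lay above each tumor group. Noc4l, whose product binds that of Nop14, went from 24.9 and 27.7 CPM to 17.5 and 19.7 CPM in tumor, all above the 7.40 to 9.26 CPM of blood. Its log2 ratios of −0.51 and −0.49 compare with −0.85 and −0.96 for Nop14, and Utp18 had −0.58 and −0.67.

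The late 40S factors Bysl, Ltv1, Nob1 and Rrp12 act in the last steps of the small subunit. Nob1, the nuclease that forms the end of the 18S RNA, stood at 11.4 and 15.7 CPM in control tumors and at 6.06 and 7.18 CPM after IR, with log2 ratios of −0.90 (−1.26 to −0.56) and −1.12 (−1.41 to −0.84). Rrp12, an export factor, stood at 9.31 and 12.2 CPM in control and at 4.64 and 5.04 CPM after IR, with log2 ratios of −0.995 (−1.40 to −0.61) and −1.27 (−1.62 to −0.94). The WT-label value of Rrp12 stayed just short of −1, as did that of Rrs1, and Wdr12 was just past it. Bysl had −0.77 and −0.83, and Ltv1 −0.50 and −0.89.

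The 13 factors of 60S assembly had a median log2 ratio of IR over control in tumor of −0.68 (WT label) and −0.85 (cKO label). Rrp15, an early factor, went from 16.8 and 27.9 CPM to 7.87 and 10.8 CPM, with log2 ratios of −1.09 (−1.39 to −0.80) and −1.36 (−1.59 to −1.14). The products of Pes1, Bop1 and Wdr12 form 1 complex, PeBoW, and their log2 ratios were unequal, at −0.76, −0.35 and −1.001 for the WT label and at −0.70, −0.85 and −1.34 for the cKO label. Wdr12 stood at 11.2 and 16.0 CPM in control and at 5.57 and 6.28 CPM after IR. Nop2, an RNA methyltransferase, went from 7.30 and 11.5 CPM to 4.81 and 5.47 CPM (−0.60 and −1.06), and Nop16 had −0.92 and −1.23. Nearest to 0 was Rrp1b, at 33.7 and 29.4 CPM in control and 26.9 and 25.2 CPM after IR, with log2 ratios of −0.32 (−0.50 to −0.15) and −0.22 (−0.40 to −0.05). Ebna1bp2, the EBP2 homolog, went from 67.1 and 81.7 CPM to 51.8 and 57.3 CPM, −0.37 (−0.50 to −0.25) and −0.51 (−0.62 to −0.40). Noc2l had −0.41 and −0.45, Noc3l −0.49 and −0.85, Nip7 −0.68 and −0.77, and Wdr74 −0.75 and −0.73.

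Of the other nucleolar regulators, Mybbp1a, which binds both MYB and the polymerase machinery, went from 48.8 and 72.0 CPM to 26.9 and 29.7 CPM, with log2 ratios of −0.86 (−1.02 to −0.70) and −1.28 (−1.42 to −1.14). Gnl3, nucleostemin, went from 53.2 and 68.2 CPM to 30.1 and 30.8 CPM, with −0.82 (−0.98 to −0.67) and −1.14 (−1.28 to −1.01). Ddx21, an RNA helicase, went from 95.5 and 105 CPM to 56.1 and 62.0 CPM, with −0.77 (−0.88 to −0.65) and −0.76 (−0.86 to −0.66). In blood Ddx21 stood at 57.5 to 62.4 CPM and so overlapped with the irradiated tumors. Counts of Nop56, Nop58, Ncl and Gnl3 may include reads of small RNA genes annotated within them on the same strand, and exons of 16 members overlap a gene on the opposite strand, whose reads may be included too, since whether the counting used strand is not given in the sources used here.

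Within macrophage-like cells, the most numerous tumor class, all counted members again had a lower level after IR. The medians of −0.84 (−1.14 to −0.63) for the WT label and −1.01 (−1.29 to −0.78) for the cKO label rested on 1231 and 1317 control and 1614 and 2144 irradiated cells. Log2 ratios of −1 or less were reached by 13 of 42 (3.41% of genes) and 23 of 43 (7.39%), among them Utp20 at −1.90, Rrp15 at −1.54 and Nop58 at −1.43 for the WT label. These cells belong to the contrast used to choose the module, so nothing is read from these counts. The same clusters made up the macrophage-like class before and after IR, but in unlike numbers of cells. Cluster 1, led by Nos2 and interferon-induced Ifit genes, went from 280 and 129 to 1292 and 1624 cells, and cluster 4, led by MHC class II genes, from 743 and 649 to 252 and 370 cells. Cluster 8, led by Folr2, Mrc1 and C1q genes, went from 208 and 539 to 70 and 150 cells.

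Inside single clusters the differences were smaller, except in cluster 8. The median log2 ratio of IR over control was −0.42 (WT label, 28 members counted) and −0.46 (cKO label, 30) in cluster 1, −0.25 (37) and −0.45 (41) in cluster 4, and −0.92 (15) and −1.09 (37) in cluster 8. In cluster 3, which has no cell type name and is led by Cxcl10 and Nrg1, it was −0.20 (22) and −0.10 (20). With the cKO label the interval lay below 0 for 13 of 30 members in cluster 1 (9.55% of genes), 23 of 41 in cluster 4 (13.4%), 29 of 37 in cluster 8 (25.8%) and 6 of 20 in cluster 3 (11.1%). Nothing is read from these counts either, since they come from the contrast used to choose the members. In WT-labelled control tumors the summed module level was 1703 CPM in cluster 1, 1617 CPM in cluster 3, 2904 CPM in cluster 4 and 2978 CPM in cluster 8. After IR it was 1290 CPM, 1414 CPM, 2459 CPM and 1759 CPM, so cluster 1, with more cells after IR, held less of the module than clusters 4 and 8, with fewer. Proliferation genes in cluster 8 moved from 1170 and 1586 CPM to 951 and 253 CPM, and their part in the result was not tested.

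Dendritic cell-like cells of tumor had medians of −0.55 (11 members counted) and −0.87 (8), and NK cell-like cells −0.35 (7) and −0.42 (6). In WT-labelled fibroblast-like cells, 79 after IR and 116 in control, the median was −0.13 (−0.43 to 0.12) over 40 members against −0.01 over all genes, and the interval lay below 0 for 10 of 40 (11.4% of genes). Npm1 in these cells went from 2715 to 2553 CPM, a log2 ratio of −0.09 (−0.14 to −0.04), and Ncl from 1330 to 1116 CPM, −0.25 (−0.33 to −0.18).

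To set cells of unequal depth side by side, each cell was thinned to 3000 UMIs. A macrophage-like cell then held a median of 7 module UMIs (quartiles 4 to 10) with the WT label and 8 (6 to 12) with the cKO label in control tumors, over 1079 and 1224 cells. After IR it held 3 (2 to 6) and 4 (2 to 6), over 1455 and 1911 cells, and 152, 93, 159 and 233 cells of the 4 groups in turn were too shallow. The share of cells with 10 or more module UMIs was 28.1% and 42.2% without IR, against 7.15% and 9.73% with it. Before thinning the median cell stood at 2254 and 2914 CPM in control and 1145 and 1257 CPM after IR. Fibroblast-like cells held a median of 19 and 20 UMIs in control and 19 and 17 after IR. Monocyte-like cells of blood held 5 or 6 in each group.

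**Figure D4:**
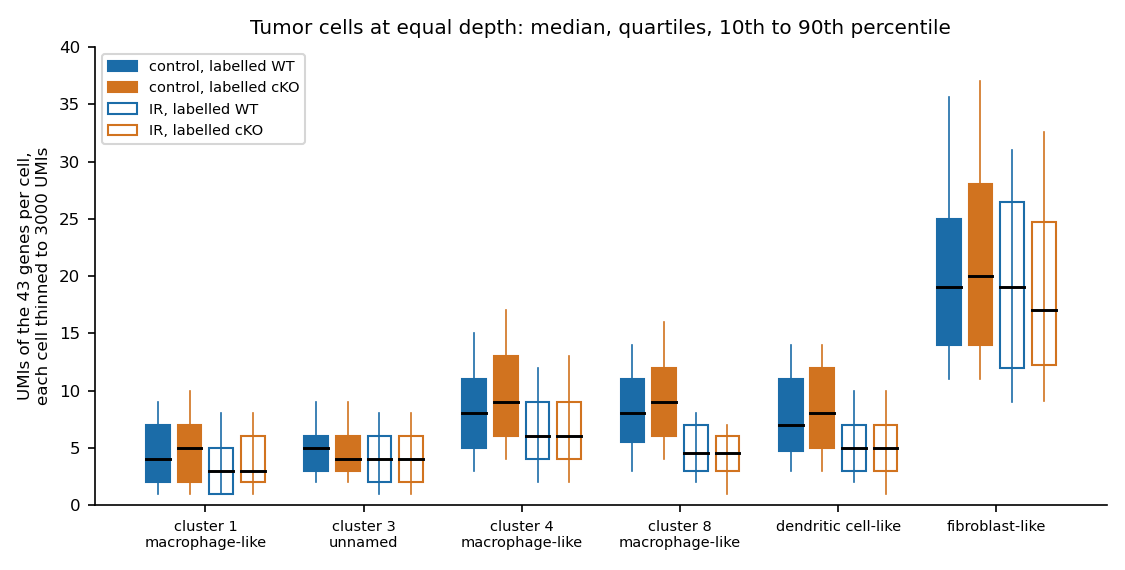
Module UMIs per tumor cell after thinning to 3000 UMIs, in clusters 1, 3, 4 and 8, dendritic cell-like and fibroblast-like cells, with the median, the quartiles (box) and the 10th to 90th percentile (line) of each group. Fibroblast-like cells have medians of 17 to 20, clusters 4 and 8 have 8 or 9 in control and 4.5 to 6 after IR, and cluster 3 stays at 4 or 5.

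In blood the module did not go one way after IR. Of 43 members counted for the WT label 28 were higher and 15 lower, with a median log2 ratio of 0.04 (−0.18 to 0.26) against 0.03 over 9769 genes. For the cKO label 27 of 41 were higher and 14 lower, with a median of 0.13 (−0.14 to 0.37) against 0.07 over 9500 genes. The interval lay above 0 for 9 of 43 (21.9% of genes) and below 0 for 6 (14.4%), and for 9 of 41 (29.3%) and 2 (13.2%) with the cKO label. Each of these counts was a smaller share of the members than of all genes. No member was higher by 0.5 or more with the WT label (2.68% of genes), and 3 were with the cKO label (3.89%). Proliferation genes summed to 83.6 and 91.8 CPM in control and 140 and 166 CPM after IR.

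Set beside tumor, the interval lay below 0 in tumor and above 0 in blood for 9 of 42 members with the WT label (7.86% of 8757 genes) and 9 of 41 with the cKO label (13.4% of 8818). It lay below 0 in both tissues for Ddx21, Gnl3, Ncl, Nolc1 and Nop10 with the WT label (6.47% of genes), and for Gnl3 and Nop10 with the cKO label (4.12%). The tumor interval lay wholly under the blood interval for 34 members with the WT label (23.2%) and for 40 with the cKO label (28.8%). The tumor values in these counts were used to choose the members, so nothing is read from them.

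The blood ratios farthest from 0 for the WT label were those of Myc, −0.83 (−1.35 to −0.34), Nob1, 0.44 (0.17 to 0.71), Noc4l, 0.32 (0.02 to 0.63), Rrp15, 0.30 (0.00 to 0.61), and Gnl3, −0.29 (−0.47 to −0.11). Nob1 stood at 9.31 CPM in control and 12.6 CPM after IR, and Gnl3 at 26.5 and 21.7 CPM. For the cKO label they were Nop2, from 5.85 to 9.05 CPM with 0.63 (0.28 to 0.99), Wdr12, from 8.10 to 12.1 CPM with 0.58 (0.28 to 0.89), Wdr75 with 0.53 (0.14 to 0.93), Bysl with 0.36 (0.08 to 0.65) and Ebna1bp2 with 0.29 (0.14 to 0.43). Rrs1 had 0.28 (−0.04 to 0.59) and 0.24 (−0.07 to 0.56), and Nop10, with −0.19 (−0.27 to −0.11) and −0.25 (−0.33 to −0.16), was lower with either label. Within monocyte-like cells the medians were 0.14 (39 counted) and 0.02 (38), and Rrs1 had 0.48 (0.06 to 0.93) and 0.03 (−0.41 to 0.49).

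Cells labelled cKO held more of the module than cells labelled WT in control tumors. Of 43 members 41 were higher, with a median log2 ratio of 0.39 (0.17 to 0.63) against 0.04 over 9441 genes. The interval lay above 0 for 38 (29.2% of genes) and below 0 for 1 (21.0%), and 12 members were higher by 0.5 or more (10.2%). The tumor groups were used to choose the module, so nothing is read from these counts or from those of the labels in tumor below. Rrs1 was farthest from 0, with 0.87 (0.63 to 1.12), followed by Polr1b, from 3.09 to 5.32 CPM with 0.77 (0.27 to 1.31), Rrp15 with 0.73 (0.51 to 0.95), Nop2 with 0.65 (0.32 to 0.99) and Myc with 0.64 (0.36 to 0.93). Ncl had 0.50 (0.45 to 0.54), Nhp2 0.59 (0.50 to 0.68), Nop58 0.51 (0.39 to 0.63), and Npm1 0.24 (0.20 to 0.28). Rrp1b was lower, with −0.20 (−0.38 to −0.02), and Utp14a had −0.01 (−0.17 to 0.14).

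That difference depended on which cells were counted. With the fibroblast-like cells included it was 0.43. It was 0.27 (0.07 to 0.56) within macrophage-like cells, with an interval above 0 for 28 of 43 members (24.7% of genes), and 0.15, 0.02, 0.23 and 0.18 within clusters 1, 3, 4 and 8. It was 0.19, with 40 of 43 members higher, when a WT label also needed a 4-fold hashtag margin. In fibroblast-like cells it was −0.04, over 41 members. Proliferation genes summed to 331 CPM in WT-labelled and 759 CPM in cKO-labelled control tumor cells, cells with at least 3 cycling-marker UMIs made up 4.41% and 17.2%, and without these the median was 0.29. The share of ribosomal protein UMIs was 15.9% in both.

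After IR the labels were closer. The median log2 ratio of cKO over WT in tumor was 0.12 (−0.11 to 0.37) over 42 members against 0.07 over 9431 genes, with 37 higher and 5 lower, a split of 27 and 15 under TMM scaling. With the fibroblast-like cells included, the median turned to −0.09, with 11 higher and 31 lower, and Rrp15 and Nop58 came to −0.11 and −0.19. In immune cells the interval lay above 0 for 10 of 42 (21.7% of genes) and below 0 for none (7.49%), and 2 members were higher by 0.5 or more (2.87%). Utp20 had 0.61 (0.18 to 1.06), Bysl 0.51 (0.16 to 0.87), Rrp15 0.46 (0.16 to 0.76), Pes1 0.35 (0.15 to 0.55) and Nop58 0.27 (0.10 to 0.44), while Rrs1 had 0.21 (−0.14 to 0.56), Myc 0.23 (−0.07 to 0.53), Npm1 0.03 and Ncl 0.14. The control comparison of the labels and the comparisons of IR with control share groups, so the larger IR ratios with the cKO label and the higher cKO control levels are not separate results.

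In blood the labels differed little. In control blood 19 of 42 members were higher and 23 lower with the cKO label, with a median of −0.03 (−0.20 to 0.19), and the interval lay above 0 for 5 (18.2% of genes) and below 0 for 6 (18.5%). Farthest from 0 were Myc with −0.70 (−1.23 to −0.20), Utp4 with −0.61 (−1.03 to −0.22), Rrp1b with −0.46 (−0.71 to −0.21), Nob1 with 0.38 (0.11 to 0.67) and Rrp15 with 0.32 (0.00 to 0.64). In irradiated blood the median was 0.05 (−0.16 to 0.25), with 25 of 42 higher, and the interval lay above 0 for 6 (20.8%) and below 0 for 2 (9.75%). Farthest from 0 were Noc3l with 0.34 (−0.08 to 0.77), Nop2 with 0.33 (0.01 to 0.65), Wdr12 with 0.32 (0.05 to 0.60), Gnl3 with −0.29 (−0.49 to −0.08) and Nop58 with −0.26 (−0.48 to −0.05).

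Between tissues, WT-labelled control cells of tumor held more of the module than those of blood. Of 42 members 38 were higher in tumor, with a median log2 ratio of 0.81 (0.55 to 1.03) against −0.04 over 9784 genes, and 15 were higher by 1 or more (14.1% of genes). The interval lay above 0 for 36 (38.6%) and below 0 for 3 (41.7%). Control and irradiated tumor cells are the sides of the contrast used to choose the module. Nothing is therefore read from these counts or from those after IR below. Noc4l had 1.75 (1.49 to 2.03), Rrp12 1.60 (1.19 to 2.05), Gar1 1.57 (1.34 to 1.82), Nop58 1.49 (1.33 to 1.67) and Nop56 1.45 (1.30 to 1.62). Ncl had 1.39 (1.34 to 1.45), Myc 1.21 (0.85 to 1.60), Nhp2 1.19 (1.07 to 1.31), Rrp15 1.16 (0.88 to 1.45) and Npm1 1.06 (1.02 to 1.11). Nop14, Nolc1, Rrp1b, Gnl3 and Mybbp1a made up the rest of the 15, none of them above 1.11. Polr1a went the other way, with −0.85 (−1.13 to −0.59), as did Utp14a with −0.20 (−0.35 to −0.06) and Nop10 with −0.10 (−0.19 to −0.02), and Bysl had −0.02.

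After IR that difference was 0.14 (−0.15 to 0.34) over 42 members, with 24 higher and 18 lower, a split of 29 and 13 under TMM scaling, which raised these ratios by 0.24. The median over 9723 genes was −0.21. The only member higher by 1 or more (12.1% of genes) was Myc with 1.79 (1.36 to 2.29), and 3 were lower by 1 or more (19.0%), namely Polr1a with −1.68 (−2.01 to −1.38), Utp14a with −1.05 (−1.22 to −0.90) and Nob1 with −1.05 (−1.39 to −0.74), which turned to 0.18 with the fibroblast-like cells included. Rrs1 had 0.84 (0.54 to 1.15) in control and −0.43 (−0.78 to −0.09) after IR, but the latter turned to 0.14 with each cell weighted equally and to 0.65 with the fibroblast-like cells included. Neutrophil-like cells made up 65.1% to 70.8% of the blood groups, and macrophage-like cells 48.9% to 61.3% of the kept cells of the tumor groups, so tissue and cell class cannot be told apart in these ratios. Within classes found in both tissues the control medians were 0.00 (15 members counted) in dendritic cell-like and 0.46 (9) in NK cell-like cells. After IR they were −0.64 (7) in dendritic cell-like, 0.41 (3) in NK cell-like and −0.53 (7) in neutrophil-like cells. Different clusters made up these classes in the 2 tissues. Dendritic cell-like cells were mostly of clusters 14 and 18 in tumor and of cluster 17 in blood, and NK cell-like cells of cluster 15 in tumor and 16 in blood. Neutrophil-like cells were mostly of cluster 9 in tumor and of clusters 0, 6, 7 and 10 in blood.

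Classes within 1 group share a library and a genotype label. In WT-labelled control blood, 27 of the 28 members counted were higher in monocyte-like than in neutrophil-like cells (65.6% of 7389 genes). The median log2 ratio was 2.84 against 0.65 over all genes. The minimum for counting held for the UMIs of both classes together, so a member could pass through the monocyte-like class alone. Members scarce in both classes were left out, so this count and median do not describe the whole module. Its summed level, which needs no such minimum, was 5.32-fold that of neutrophil-like cells in monocyte-like cells. Fbl stood at 113 CPM against 2.52 CPM (5.41), Npm1 at 461 against 21.9 CPM (4.39) and Nop10 at 190 against 18.0 CPM (3.39). Mybbp1a stood at 38.5 against 0.480 CPM, a log2 ratio of 5.97 (4.95 to 8.21). The ratio was small for Ncl, at 165 against 113 CPM (0.55), and for Utp14a, at 59.3 against 33.5 CPM (0.82). Polr1a alone was higher in neutrophil-like cells, at 25.6 against 11.5 CPM, −1.14 (−1.55 to −0.76). It stood at 25.4 to 35.4 CPM in the neutrophil-like cells of the 4 blood groups. Its exons overlap Gm26628 on the opposite strand.

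In WT-labelled control tumors, 40 of 42 counted members were higher in fibroblast-like than in macrophage-like cells (57.0% of 8177 genes), with a median log2 ratio of 1.29 against 0.21 over all genes. Myc had 3.49 (3.23 to 3.79), Nob1 2.88, Rrs1 2.77 (2.50 to 3.07) and Npm1 2.02. Rrp12, at 8.53 against 11.6 CPM, had −0.44 (−1.08 to 0.15), Ddx21, at 98.5 against 102 CPM, −0.06, and Ltv1 0.02. With the cKO label the median was 0.82 against 0.27 over all genes, with 38 members higher (59.4% of genes) and 5 lower, and an interval below 0 for 2. After IR it was 2.05 against 0.19 with the WT label, where all 39 counted members were higher (55.6% of genes), and 1.84 against 0.16 with the cKO label, where all 41 were (55.2%). In summed level this was 2.92-fold and 2.32-fold in control and 4.72-fold and 4.26-fold after IR. Control and irradiated macrophage-like cells belong to the contrast used to choose the module, so nothing is read from these counts and folds. Proliferation genes summed to 2353 to 2933 CPM in fibroblast-like cells.

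**Figure D5:**
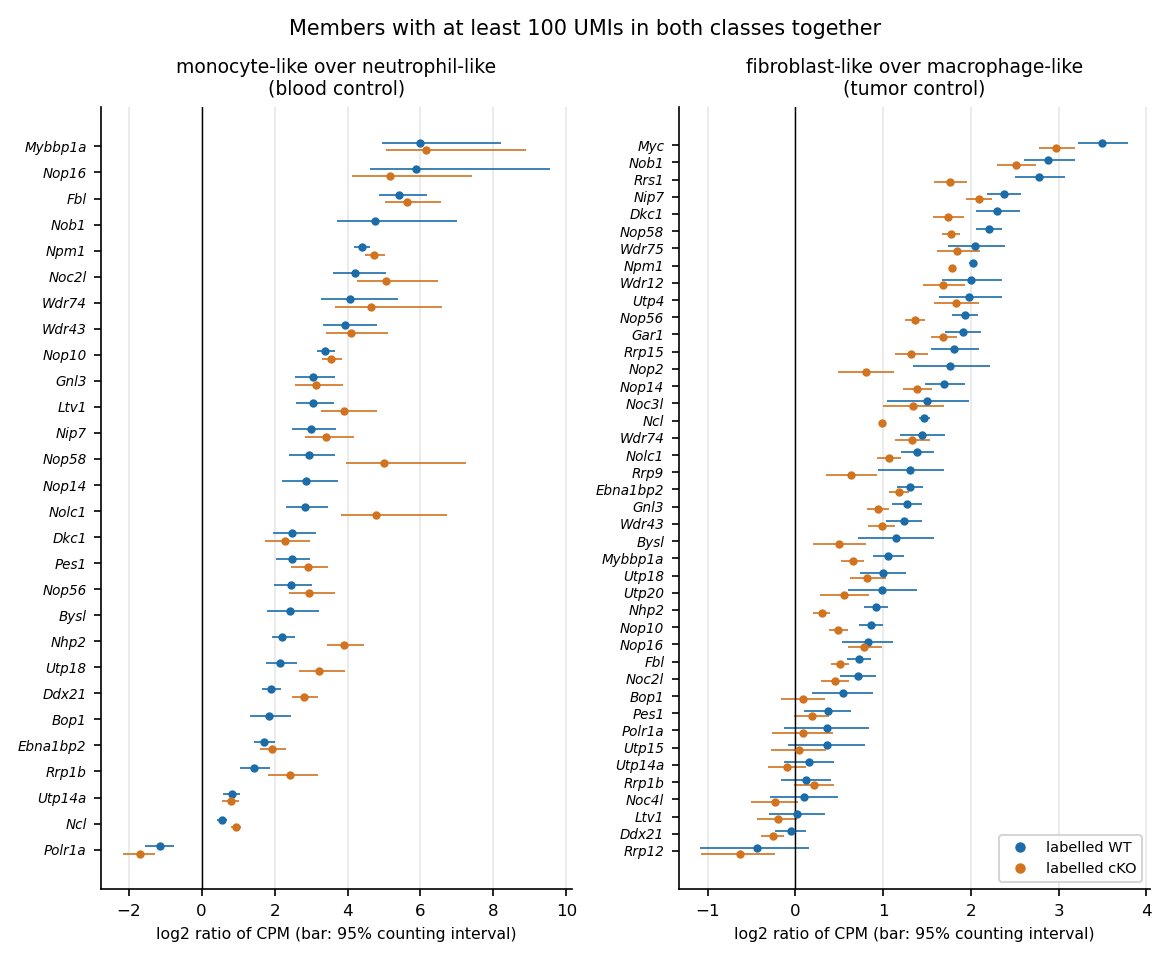
Log2 ratio of CPM of each member with at least 100 UMIs between classes of control cells, as monocyte-like over neutrophil-like cells of blood and fibroblast-like over macrophage-like cells of tumor, by label, with 95% counting intervals. In blood Polr1a, at −1.14 with the WT label, lies on the neutrophil side and Ncl, at 0.55, near equal levels, and in tumor Myc, at 3.49, lies farthest on the fibroblast-like side.

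A wider list of genes of the same pathway, leaving out the members, held 131 genes found in the files. After IR in tumor 119 of 128 counted genes were lower with the WT label and 118 of 130 with the cKO label, with medians of −0.41 and −0.45. The interval lay below 0 for 94 (35.2% of all genes) and 98 (37.3%) and above 0 for 5 and 8. The wider list was chosen with earlier results of these data known, and this contrast was used to choose the module. Nothing is therefore read from the counts of the wider list here or in the paragraph below. By group, the median with the WT label was −0.35 for polymerase I factors, −0.40 for small subunit factors, −0.46 for 60S factors, −0.44 for snoRNP assembly factors and −0.26 for the exosome, the nuclease complex that trims ribosomal RNA. Farthest from 0 were the helicase gene Ddx51 with −1.34, Rcl1 with −1.04 and the giant ATPase gene Mdn1 with −1.02, against Ccdc86 with 0.50, Ddx24 with 0.38 and the nuclease gene Xrn2 with 0.35. With the cKO label they were the exosome gene Exosc2 with −1.35, Tsr1 with −1.30 and Rcl1 with −1.25, against Ddx24 with 0.53, Utp23 with 0.48 and the kinase gene Riok3 with 0.45. Of 81 counted ribosomal protein genes 80 were lower with either label, with medians of −0.47 and −0.42. The 7 counted genes of the MYC network, which holds partners and antagonists of MYC such as Max and Mxd1, had medians of 0.08 and 0.36.

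In blood the wider list's medians of IR over control were 0.05 (79 of 128 higher) with the WT label, where Cebpz had −0.59 and Wrap53 0.65, and 0.15 (99 of 128) with the cKO label, where Tsr1 had −0.55 and Shq1 0.50. For cKO over WT in control tumors its median was 0.18, with 105 of 131 genes higher and an interval above 0 for 57 (29.2% of all genes), led by Ddx31 with 0.9996, Cd3eap with 0.73 and Nsun5 with 0.70, against Utp23 with −0.63. In irradiated tumors it was 0.08, with Ddx51 at 0.84 and Nol6 at 0.68. For tumor over blood it was 0.30 in control, with Tma16 at 1.98 and Cebpz at −1.67, and −0.16 after IR, with Nufip1 at 1.65 and Cebpz at −1.84.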

How the data were processed

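UMI counts were deposited as 4 unfiltered matrices of 32285 genes and 2 hashtags, made by the authors with Cell Ranger (6.0.1 in the submitters' processing notes, which also name Seurat 4.0.6; version 4 in the file headers) on mm10 with GENCODE annotation. Libraries were 10x 3′ preparations, so a count is a 3′ tag and does not scale with transcript length. Gene UMIs summed to 87703837 and 81601307 in the tumor control and IR libraries and to 51731085 and 51653956 in the blood ones.

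Cells were called by a UMI threshold and a test against ambient RNA, and kept with at least 500 UMIs, 200 genes and at most 25% mitochondrial UMIs. From each library the top 6% by doublet score were removed. A cell was labelled WT if hashtag B0301 was at least B0302, and cKO if B0302 was at least 4 times B0301. Between 392 and 500 cells a library lay between the labels and were left out. Median depth was 7298.5, 6076, 2981 and 3025 UMIs a cell for tumor without and with IR and blood without and with IR. Cells were clustered with scanpy 1.11.5 and leidenalg 0.10.2 (2000 variable genes, 40 components, 20 neighbors, resolution 0.8) without the members, the wider list and the label genes, 187 genes in all, and 20 of 23 clusters were named from at least 3 markers. Such names may differ from those of the study. The 43 members, the wider list and the rules were chosen with earlier results of these data known. The non-immune cluster was kept apart in all main values.

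Named genes are all members by role, with values in full for Rrs1, Myc, the 8 members with the most UMIs and, in each comparison, the members past 1 on the log2 scale with an interval without 0, or the 5 farthest from 0 where fewer were past 1. Of the wider list, the genes farthest from 0 are named. Ratios were checked on simulated counts. Cells are not replicates, so no test was made. Promoters came from RefSeq (GRCm38.p6), and gene positions from GENCODE on mm10. Analyses used Python 3.11.15, numpy 2.4.6, scipy 1.17.1, pandas 2.3.3 and edgeR 4.0.16 in R 4.3.3 for TMM factors only.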

Additional observations from a re-analysis of the deposited data

Results flagged for a closer look

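IR went with opposite differences in tumor and in blood for some members, and the contrast between the tissues was not tested. With the WT label, 9 of the 42 members counted in both tissues (Ebna1bp2, Fbl, Nhp2, Nob1, Noc4l, Pes1, Rrp15, Utp14a and Wdr74) had an interval below 0 in tumor and above 0 in blood (7.86% of 8757 genes). With the cKO label, 9 of 41 did (Bysl, Ebna1bp2, Nhp2, Nop2, Npm1, Pes1, Utp18, Wdr12 and Wdr75), against 13.4% of 8818 genes. Rrs1 had log2 ratios of −0.99 in tumor and 0.28 in blood with the WT label, and −1.66 and 0.24 with the cKO label, where both blood intervals include 0. The tumor side of this pattern was used to choose the module. Cell classes differed between the tissues, and their part in the pattern was not tested.

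Data outside the comparisons also held a signal. Of the barcodes with too few hashtag UMIs, 7325 in the tumor control library and 4955 in the tumor IR library carried enough in the other tumor library, against none in blood.

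Each group held 1 sample, so samples of a group were not compared with one another.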

How the results depend on the processing

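Median log2 ratios of IR over control in tumor kept their sign under all 11 alternatives, from −0.89 to −0.62 with the WT label and from −1.25 to −0.82 with the cKO label, and cKO over WT in control tumors stayed between 0.19 and 0.43. The medians near 0 in blood changed sign in 3 (WT) and 1 (cKO) of 10 alternatives for IR, and in 1 each for cKO over WT, as did that in irradiated tumors (−0.09 with fibroblast-like cells). Counting all kept cells, fibroblast-like ones included, gave −1.25 for IR in cKO-labelled tumor cells, 1.21 for tumor over blood in control and 0.58 after IR. Weighting each cell equally gave 1.36 and 0.76 for the latter, and TMM factors 0.37 after IR. Pooled labels, with fibroblast-like cells, scored doublets and cells between the labels included, gave −0.31 for IR in tumor without a hashtag minimum. With a 4-fold margin for WT, summed levels were 2809 CPM in macrophage-like and 8532 CPM in fibroblast-like control cells.

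Of single values, 885 stayed within the main interval, 94 moved out of it, and 11 changed sign where that interval left out 0. Changes of sign where the main interval included 0 are not among the 11. Within neutrophil-like cells alone, where counts are low, Gnl3 after IR in blood came to 0.043 (WT) and Wdr12 to −0.55 (cKO). For cKO over WT there, Myc came to 1.16, Nob1 to −2.23 and Rrp15 to −0.94 in control blood, and Wdr12 to −0.81 after IR. With all kept cells, cKO over WT in irradiated tumor came to −0.19 for Nop58 and −0.11 for Rrp15, and tumor over blood after IR to 0.18 for Nob1 and 0.65 for Rrs1. Weighting cells equally, Rrs1 came to 0.14 there. The causes were not tested.

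The alternatives with fibroblast-like cells, without cycling cells and without a hashtag minimum were chosen after seeing the data. The planned one without non-immune and cycling clusters equals the main population and gave no value of its own. No paired test was made, and each group held 1 sample, which left no replicate to leave out. WT and cKO cells shared a library, so their ratios were taken within it, with 1 such pair for each tissue and treatment. Members under 100 UMIs are limited by depth.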
